A study of Mus musculus with 44 samples.

Results

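The antioxidant genes described here were Slc7a11, Gclc, Gclm, Gsr, Txnrd1, Srxn1, Gpx2, Nqo1, Akr1b10 and Gsta4. These 10 genes, of 31414 in the table, were chosen by name as targets of the transcription factor Nrf2, and no measured value entered the rule. Earlier results of these data were known when the genes were chosen. Their mRNA was sequenced from the gastric corpus mucosa of female BalbC mice at 13 months of age. KO mice lacked the beta subunit of the H+/K+ATPase (Atp4b), the proton pump of parietal cells, in every cell, and WT mice carried it. Mice of each genotype received subcutaneous netazepide (NTZ, labelled YF), which blocks the gastrin receptor, or its vehicle polyethylene glycol (PEG). The WT mice gave 11 libraries with PEG and 9 with NTZ, the KO mice gave 13 with PEG and 11 with NTZ (WT/PEG to KO/NTZ below), and all 10 genes passed the filter on low counts.

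Nrf2, encoded by Nfe2l2, is held in the cytoplasm and degraded through its adaptor Keap1. Oxidants and electrophiles modify Keap1, Nrf2 then gathers in the nucleus with small Maf proteins, and the pair binds antioxidant response elements (ARE) near genes for glutathione synthesis, thioredoxin reduction and detoxification. In the stomach these enzymes protect an epithelium exposed to acid, food-borne toxins and inflammation.

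The sequences shown are those near the gene starts that hold the letters of the ARE core, the motif that would link these genes. Windows of 250 bases before to 50 bases after a start (RefSeq, GRCm38.p6) were held for 7 of the 10 genes, in 9 windows, and not for Gclc, Gsr and Gsta4. The ARE core TGACNNNGC was searched on both strands. It was found in 1 window each of Gclm, Txnrd1 and Srxn1, in each case on the strand opposite to the gene. Of 32851 such windows searched, which did not cover every chromosome, 12.4% held it. Sequence beyond the windows was not searched, so a gene without a match here may hold the core elsewhere. The matches follow in the direction of the gene with the core in capitals. None overlapped a match to the AP-1 motif TGANTCA, of which the Srxn1 window held 2.
Gclm, chr3:122245413-122245441, plus strand, core at -134 to -126 from the start: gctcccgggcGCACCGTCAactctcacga
Txnrd1, chr10:82859104-82859132, plus strand, core at -92 to -84 from an alternative start: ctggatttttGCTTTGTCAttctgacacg
Srxn1, chr2:152105542-152105570, plus strand, core at 28 to 36 past the start: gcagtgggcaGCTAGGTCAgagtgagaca

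The libraries held 6065084 to 21945124 estimated counts. Atp4b was between 2140 and 5738 CPM (counts scaled to the normalized library size) in the WT libraries and between 2.28 and 40.6 CPM in the KO libraries. Summed markers of parietal cells were lower in KO mice (median 4102 CPM in KO/PEG and 13775 in WT/PEG), as were those of chief cells (10746 and 186064), and those of mucous neck and metaplastic (SPEM) cells were higher (32028 and 2169). Of 10 parietal markers tested 9 were lower in KO/PEG and none was higher, and all 7 mucous neck and SPEM markers were higher. Of 6 chief cell markers tested, 5 were lower and 1 was higher. In bulk mucosa, fewer cells of a type and less mRNA per cell cannot be told apart, and the part of cell makeup in the results below was not tested. Of all genes, 37.5% were called higher in KO/PEG than in WT/PEG, so a call between genotypes was common. The p-values measure the spread between libraries. There were more KO/PEG libraries than KO/PEG mice in the study's account, the WT/PEG libraries titled WT_172_WT_PEG_1 and WT_172_WT_PEG_2 carry one animal number, and the labels do not say which libraries share an animal.

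The genes differed widely in level. In WT/PEG the order by TPM (counts scaled to transcript length and library size) was Gsta4 at a median of 1056, Nqo1 at 332, Gpx2 at 72.9, Gsr at 58.0, Gclm at 49.3, Txnrd1 at 43.0, Gclc at 21.1, Srxn1 at 12.8, Akr1b10 at 10.8 and Slc7a11 at 1.51. The ranges over libraries of Gpx2, Gsr, Gclm and Txnrd1 overlapped one another, and so did those of Gclc and Srxn1, and of Srxn1 and Akr1b10. Gsta4, Nqo1 and Slc7a11 stood clear of their neighbours. In KO/PEG the median of Gpx2 (725 TPM) passed that of Nqo1 (309 TPM) and the median of Srxn1 (34.4 TPM) passed that of Gclc (30.2 TPM), with overlapping ranges in both cases.

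Between the vehicle-treated genotypes, 7 of the 10 genes were higher in KO/PEG and none was lower, beside 37.5% of all 14893 genes called higher. The selenium-dependent glutathione peroxidase Gpx2 was 11.2-fold higher and sulfiredoxin Srxn1 was 2.45-fold higher. Gsta4, Gsr, Gclc, Gclm and Txnrd1 were between 1.30- and 1.72-fold higher, and Slc7a11, Nqo1 and Akr1b10 did not pass the test. The median log2 fold change of the 10 genes was 0.51, and that of all genes was -0.00. For 2 genes, Gpx2 and Srxn1, every KO/PEG library lay above every WT/PEG library, and 14.3% of all genes had groups that did not overlap.

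**Figure D1:**
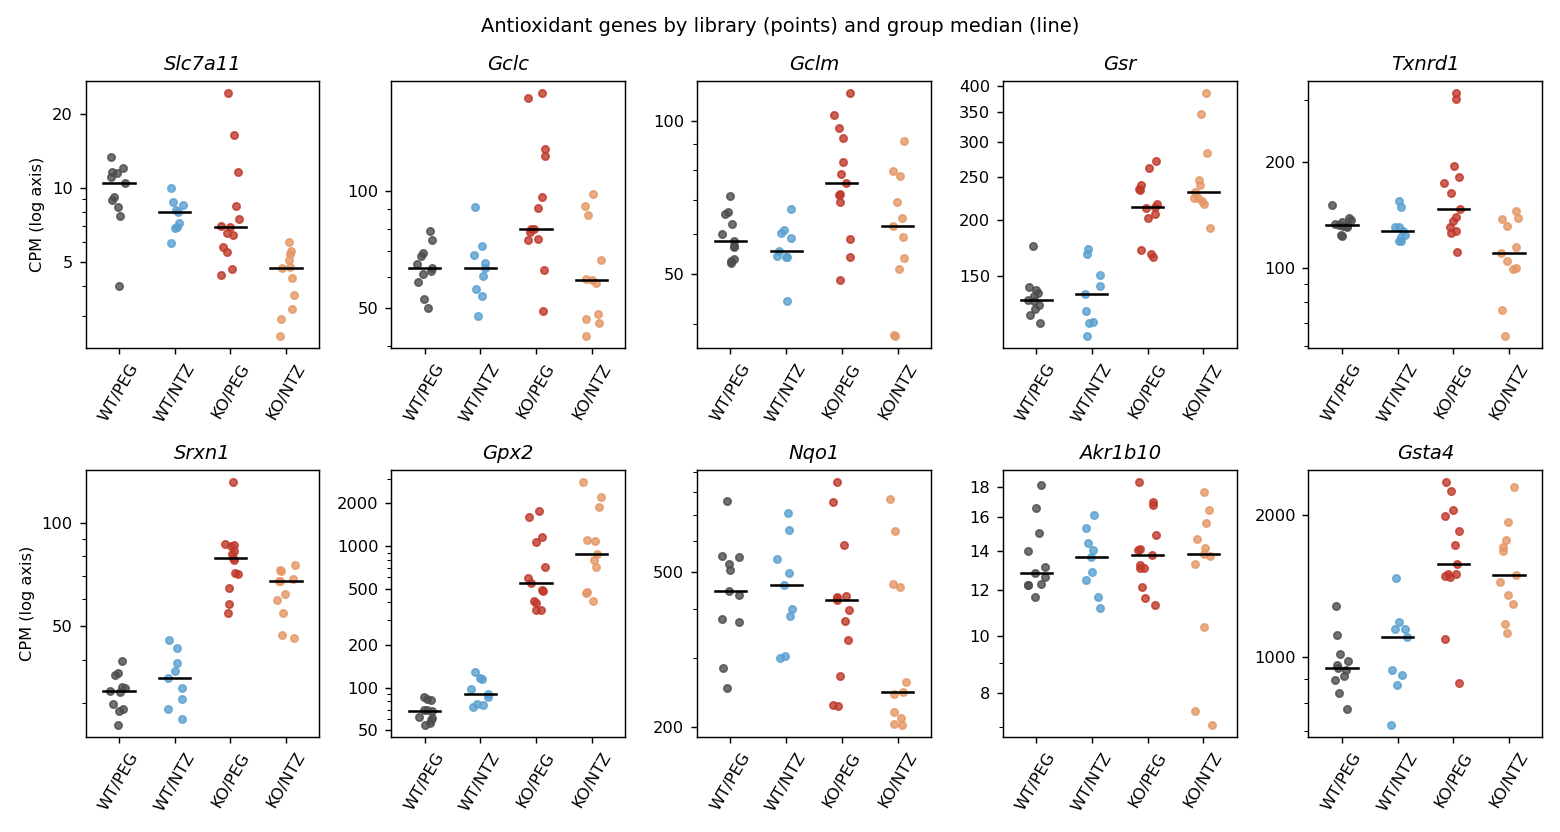
Normalized level (CPM, log axis) of each of the 10 genes in every library, with 1 point per library and a line at the group median, in 11 WT/PEG and 9 WT/NTZ libraries and in 13 KO/PEG and 11 KO/NTZ libraries. The KO libraries lie clear of the WT libraries for Gpx2 and Srxn1, and Slc7a11 is lowest in KO/NTZ.

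Slc7a11 encodes xCT, the light chain of the antiporter that brings cystine into the cell for glutathione synthesis (chromosome 3, 49892526 to 50443614, minus strand). It was the least abundant gene, at 3.99 to 13.3 CPM in WT/PEG (median 10.5) and 4.44 to 24.2 CPM in KO/PEG (median 6.92). The groups overlapped, 10 of 13 KO/PEG libraries lay below the WT/PEG median, and KO/PEG libraries 45 (16.5 CPM) and 46 (24.2 CPM) lay above every WT/PEG library. The difference did not pass the test (log2 fold change -0.14 ± 0.21 (SE), adjusted p = 0.543). With KO/PEG 45 and 46 both left out, Slc7a11 was lower in KO/PEG (-0.53 ± 0.16, adjusted p = 0.00282).

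Glutamate-cysteine ligase, the first and rate-limiting enzyme of glutathione synthesis, has a catalytic subunit Gclc (chromosome 9, 77754535 to 77794485, plus strand) and a modifier subunit Gclm (chromosome 3, 122245557 to 122270732, plus strand). Gclc was at 50.1 to 79.0 CPM in WT/PEG (median 63.5) and 49.2 to 179 CPM in KO/PEG (median 79.8). The groups overlapped, but 8 of 13 KO/PEG libraries exceeded every WT/PEG library, and the difference passed the test (0.63 ± 0.16, adjusted p = 0.000678). Gclm rose less, from 52.7 to 71.1 CPM in WT/PEG (median 58.1) to 48.6 to 113 CPM in KO/PEG (median 75.5; log2 fold change 0.39 ± 0.12, adjusted p = 0.00386). Its transcripts moved in different directions. Among them, the short coding transcript ENSMUST00000149983 (1088 bases) rose by 1.001 ± 0.101 on the log2 scale, whereas the long coding transcript ENSMUST00000029769 (5589 bases) fell by 0.56 ± 0.21 (adjusted p = 1.15e-10 and 0.0201). The short one made up a median of 31.2% of Gclm counts in WT/PEG and 45.6% in KO/PEG, and the long one 44.3% and 20.4%. Kallisto divides reads between transcripts that share sequence, so these shares are estimates.

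Glutathione reductase Gsr returns oxidized glutathione to its reduced form with NADPH (chromosome 8, 33652523 to 33698163, plus strand). It was at 117.5 to 175 CPM in WT/PEG (median 132) and 166 to 271 CPM in KO/PEG (median 214). All KO/PEG libraries lay above the WT/PEG median, and 10 of 13 lay above every WT/PEG library (0.67 ± 0.10, adjusted p = 1.51e-07).

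Txnrd1, the cytosolic thioredoxin reductase (chromosome 10, 82833951 to 82897712, plus strand), was tight in WT/PEG at 124 to 151 CPM (median 133) and wide in KO/PEG, where it reached 315 CPM (median 147.3). The groups overlapped, with 6 of 13 KO/PEG libraries above every WT/PEG library and 1 below every WT/PEG library (0.37 ± 0.13, adjusted p = 0.0116). KO/PEG 45 (315 CPM) and 46 (302 CPM) stood far above the rest, and with both left out the difference was 0.15 ± 0.10 (adjusted p = 0.166). Sulfiredoxin Srxn1 repairs overoxidized peroxiredoxins (chromosome 2, 152105516 to 152111376, plus strand). It was at 25.8 to 39.6 CPM in WT/PEG (median 32.4) and 54.8 to 132 CPM in KO/PEG (median 79.3), with no overlap (1.29 ± 0.11, adjusted p = 2.30e-13).

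Gpx2, the gastrointestinal glutathione peroxidase, reduces hydroperoxides with glutathione (chromosome 12, 76792333 to 76795554, minus strand). It was at 54.6 to 85.8 CPM in WT/PEG (median 68.8) and 354 to 1764 CPM in KO/PEG (median 547). No library overlapped, and the log2 fold change was 3.49 ± 0.31 (adjusted p = 8.89e-13). Gpx2 shares 28.5% of its 31-base words with the pseudogene Gpx2-ps1, which stayed at or below 0.756 CPM in every library.

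Of the detoxifying enzymes Gsta4, Nqo1 and Akr1b10, only Gsta4 was higher. This glutathione transferase acts on 4-hydroxynonenal, a product of lipid peroxidation (chromosome 9, 78182774 to 78209349, plus strand). It was at 779 to 1281 CPM in WT/PEG (median 950) and 884 to 2345 CPM in KO/PEG (median 1575), and 11 of 13 KO/PEG libraries exceeded every WT/PEG library (0.78 ± 0.13, adjusted p = 1.33e-06). The quinone reductase Nqo1 (chromosome 8, 107388225 to 107403206, minus strand) spread from 251 to 757 CPM in WT/PEG (median 446) and from 227 to 849 CPM in KO/PEG (median 424), and the groups overlapped almost fully (-0.06 ± 0.23, adjusted p = 0.833). Akr1b10, an aldo-keto reductase of aldehydes (chromosome 6, 34384218 to 34396950, plus strand), was at 11.7 to 18.2 CPM in WT/PEG and 11.3 to 18.4 CPM in KO/PEG, with medians of 12.8 and 13.8 (0.04 ± 0.11, adjusted p = 0.720). Its nonsense-mediated decay transcript ENSMUST00000139156 had a median share of 2.92% in WT/PEG and 35.2% in KO/PEG, and its coding transcript ENSMUST00000038383 86.4% and 59.6%. Neither passed the test here (1.16 ± 0.69, adjusted p = 0.156, and -0.29 ± 0.41, adjusted p = 0.574). The study, with its own test, reported ENSMUST00000139156 as higher in KO/PEG. These shares are estimates too. The related gene Akr1b8, which shares 94 of the 3554 words of Akr1b10, was at 7.68 to 50.2 CPM in WT/PEG and 146 to 712 CPM in KO/PEG.

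NTZ lowered 3 of the 10 genes in KO mice, beside 2.6% of all genes called lower in KO/NTZ than in KO/PEG. Slc7a11 fell to 0.494-fold, and Gclc and Txnrd1 each fell to 0.644-fold. No gene of the 10 was called higher. The log2 fold change was below 0 for 8 of the 10, with a median of -0.32 beside -0.01 over all genes. An unadjusted p below 0.05 was found for 7 of the 10, of which Gpx2 and Gsr were above 0, beside 24.9% of all genes. Other cell markers moved in this comparison too, beside 2.97% of all genes called higher and 2.6% lower. All 5 red cell markers were lower in KO/NTZ, as were 4 of 7 neuroendocrine, 2 of 10 parietal, 2 of 5 endothelial, 2 of 6 fibroblast and 1 of 7 macrophage markers. Higher were 1 neuroendocrine marker, 2 of 8 markers of proliferating cells, 1 of 2 skeletal muscle markers and 3 of 6 smooth muscle markers. The summed level of red cell markers ranged from 128.4 to 4101 CPM in KO/PEG and from 95.0 to 426 CPM in KO/NTZ. That of smooth muscle markers ranged from 1093 to 3515 and from 2155 to 4777 CPM. The part of all these markers in the results was not tested.

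**Figure D2:**
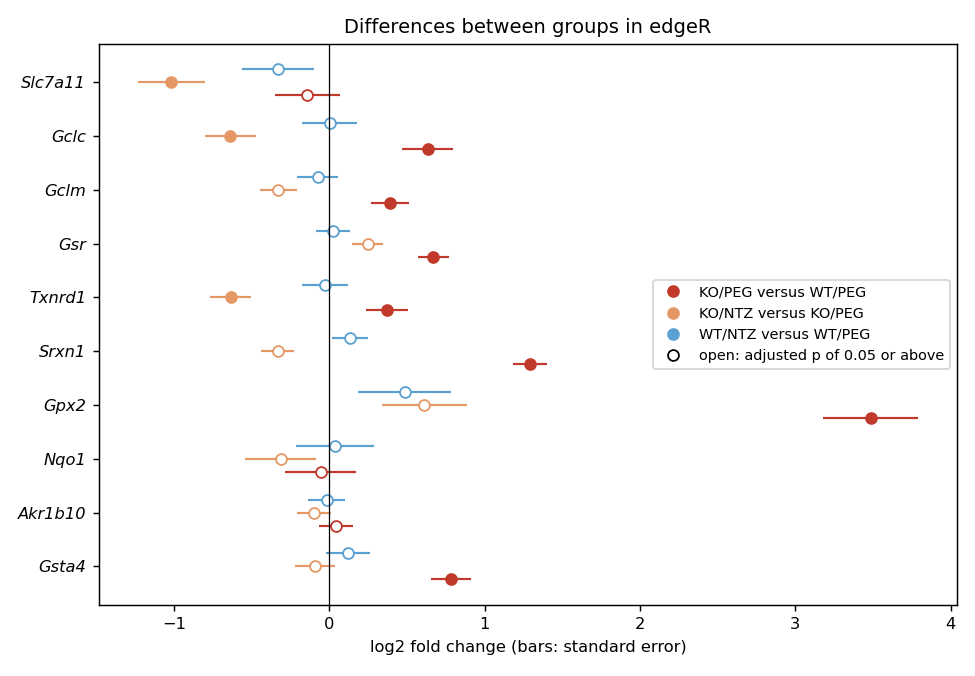
The log2 fold change of each gene in 3 comparisons, with bars of 1 standard error, filled where the adjusted p was below 0.05 and open otherwise. The genotype differences of Gpx2 and Srxn1 lie farthest to the right, the KO/NTZ versus KO/PEG values of Slc7a11, Gclc and Txnrd1 are filled and below 0, and all WT/NTZ versus WT/PEG values are open.

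Slc7a11 was at 2.49 to 6.01 CPM in KO/NTZ (median 4.71), and all 11 KO/NTZ libraries lay below the KO/PEG median of 6.92 CPM. The groups overlapped, with 5 KO/NTZ libraries below every KO/PEG library (-1.02 ± 0.22, adjusted p = 0.00263). Gclc was at 42.3 to 98.2 CPM (median 59.1), and 8 of 11 KO/NTZ libraries lay below the KO/PEG median (-0.64 ± 0.16, adjusted p = 0.0135). Its partner Gclm, at 37.8 to 91.2 CPM (median 62.1), did not pass the test (-0.33 ± 0.12, adjusted p = 0.0949).

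Txnrd1 was at 64.1 to 146 CPM in KO/NTZ (median 110.7), and every KO/NTZ library lay below the KO/PEG median, 6 of them below every KO/PEG library (-0.64 ± 0.13, adjusted p = 0.00247). Srxn1 was at 46.2 to 75.2 CPM (median 67.8), again with all 11 libraries below the KO/PEG median, and did not pass the test in edgeR (-0.33 ± 0.11, adjusted p = 0.0532), whereas DESeq2 called it lower (-0.34). Gsr (193 to 386 CPM, median 232; 0.25 ± 0.10, adjusted p = 0.116) and Gpx2 (412 to 2841 CPM, median 883; 0.61 ± 0.27, adjusted p = 0.156) had values above 0 that did not pass the test. Nqo1 (202 to 769 CPM, median 246), Akr1b10 (7.05 to 17.7 CPM, median 13.8) and Gsta4 (1126 to 2291 CPM, median 1490) had adjusted p of 0.380, 0.583 and 0.666.

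These calls depended in part on the KO/PEG libraries 45 and 46 and on the animals compared. With both libraries left out, Slc7a11 (-0.63 ± 0.16, adjusted p = 0.0167) and Txnrd1 (-0.41 ± 0.10, adjusted p = 0.0112) were still called lower and Gclc was not (-0.42 ± 0.14, adjusted p = 0.0829). With only the KO/PEG and KO/NTZ libraries in the fit, Slc7a11 alone was called (-1.03 ± 0.26, adjusted p = 0.0353), and Txnrd1 had an adjusted p of 0.0535 and Gclc of 0.100. Animal numbers also differed between the groups, since 7 of 13 KO/PEG libraries but 1 of 11 KO/NTZ libraries carried a number of 100 or above. So did 11 of 11 WT/PEG and 4 of 9 WT/NTZ libraries, and the comparisons with WT groups share this imbalance. Among KO animals numbered below 100, the 3 called genes differed more (Slc7a11 -1.31 ± 0.26, Gclc -0.90 ± 0.18 and Txnrd1 -0.91 ± 0.15), and Gclm (-0.49 ± 0.14) and Srxn1 (-0.44 ± 0.13) were called lower as well. KO/PEG 45 and 46 are both among the 6 KO/PEG libraries so numbered, so they weigh more there than among all 13. What the animal number stands for is not given in the labels.

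**Figure D3:**
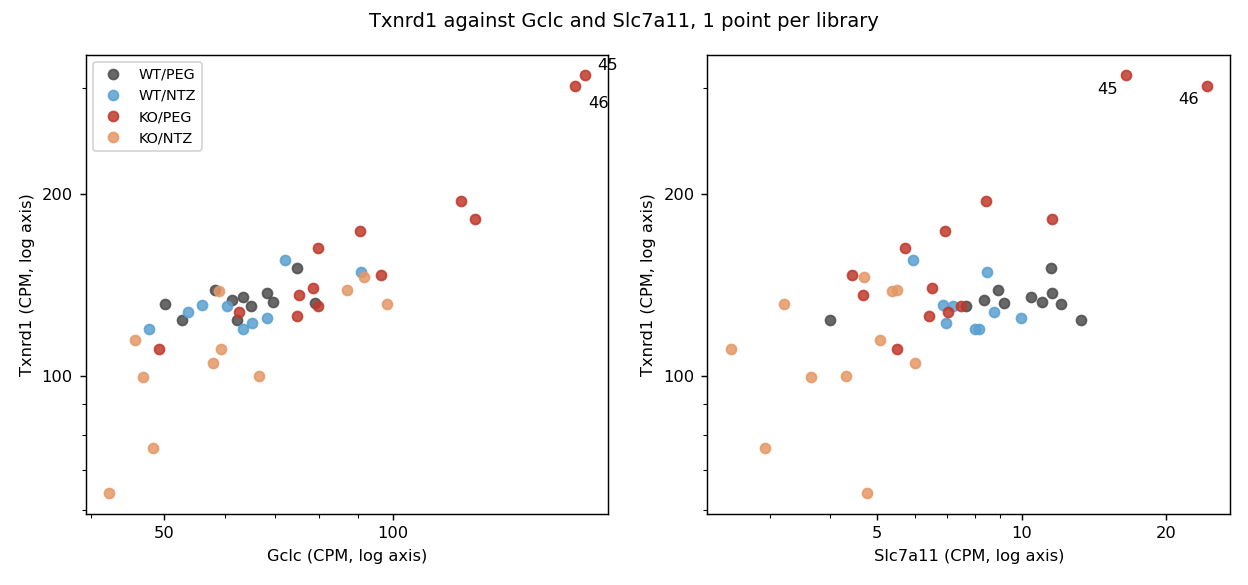
Txnrd1 against Gclc (left) and against Slc7a11 (right), in CPM on log axes, with 1 point per library coloured by group and KO/PEG libraries 45 and 46 marked by number. Both marked libraries are high for all 3 genes, and the KO/NTZ libraries hold the lowest Txnrd1 and Slc7a11 values.

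Gclc, Gclm and Txnrd1 also varied together from library to library, and Slc7a11 less closely with them. With group means subtracted, over 44 libraries, Pearson's r was 0.84 between Gclc and Gclm, between Gclc and Txnrd1 and between Gclm and Txnrd1, and Slc7a11 had 0.58 with Txnrd1, 0.51 with Gclc and 0.34 with Gclm. Gpx2 had r of -0.66 with Gclm, -0.59 with Txnrd1, -0.41 with Gclc, -0.19 with Slc7a11 and 0.62 with Gsr. The points share library depth and RNA quality, so these are descriptions. Over the 44 libraries without that subtraction, the tested gene most like Gpx2 was the peroxiredoxin Prdx1 (r = 0.98), that most like Srxn1 was Akr1b8 (0.96), that most like Gsta4 was Fbp2 (0.95) and that most like Gsr was Myadm (0.94). These r include the differences between groups. With group means subtracted, the most alike were Mif for Gpx2 (0.90), Akr1b8 for Srxn1 (0.76), Ckmt1 for Gsta4 (0.89) and Myadm for Gsr (0.76).

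In WT mice none of the 10 genes passed the test between WT/NTZ and WT/PEG. None had an adjusted p below 0.05 in edgeR or DESeq2, beside 1.03% of all genes called in edgeR, and none had an unadjusted p below 0.05 in edgeR, beside 7.82% of all genes. The largest values were 0.49 ± 0.30 for Gpx2 (73.2 to 129.1 CPM in WT/NTZ, median 90.0, adjusted p = 0.838) and -0.33 ± 0.23 for Slc7a11 (5.94 to 9.96 CPM, median 8.01, adjusted p = 0.888). With only the WT libraries in the fit, Gpx2 was at 0.52 ± 0.12 with an unadjusted p of 0.000228 and an adjusted p of 0.132. All 9 WT/NTZ libraries lay above the WT/PEG median for Gpx2, and all 9 lay below it for Slc7a11. Summed squamous markers reached 3975 CPM in WT/NTZ and 543 CPM in WT/PEG. With the libraries rich in these markers left out, none of the 10 genes was called either, in a fit with fewer WT/NTZ libraries. The part of these markers in the values was not tested otherwise.

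Whether NTZ acted differently in the genotypes was tested as its effect in KO mice minus that in WT mice, which was called for none of the 10 genes, beside 0.953% of all genes. An unadjusted p below 0.05 was found for 11.6% of all genes and for 4 of the 10, Slc7a11 (-0.68 ± 0.31, adjusted p = 0.371), Gclc (-0.64 ± 0.24, 0.227), Txnrd1 (-0.61 ± 0.20, 0.130) and Srxn1 (-0.46 ± 0.16, 0.154). With the length slope described below as a covariate, Gclc (-0.72 ± 0.19, adjusted p = 0.0180) and Txnrd1 (-0.70 ± 0.15, adjusted p = 0.00670) were called, beside 9.67% of all genes, and with only KO animals numbered below 100 Txnrd1 was called (-0.88 ± 0.21, adjusted p = 0.0278).

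Among NTZ-treated mice, 4 of the 10 genes were higher in KO/NTZ than in WT/NTZ, beside 35.6% of all genes, and 1 was lower, beside 36.8% of all genes. The higher genes were Gpx2 (3.61 ± 0.34, adjusted p = 1.08e-11), Gsr (0.89 ± 0.11, 4.86e-09), Srxn1 (0.83 ± 0.12, 9.25e-08) and Gsta4 (0.57 ± 0.14, 0.000504). Slc7a11 was lower (-0.83 ± 0.23, adjusted p = 0.00190), with 10 of 11 KO/NTZ libraries below every WT/NTZ library. Gclc (-0.00 ± 0.18), Txnrd1 (-0.23 ± 0.15) and Gclm (0.14 ± 0.13) did not pass the test here, with adjusted p of 0.982, 0.146 and 0.345. Gclm was called higher with the length slope (0.83 ± 0.16, adjusted p = 0.000189) or the mitochondrial share (0.52 ± 0.12, adjusted p = 0.000444) as a covariate. Its short transcript ENSMUST00000149983 taken alone was called higher too (0.86 ± 0.11, adjusted p = 3.51e-08), while its long transcript ENSMUST00000029769 was called lower (-0.82 ± 0.23, adjusted p = 0.00216). Gclc was also called higher with the length slope (0.88 ± 0.22, adjusted p = 0.00330) or the mitochondrial share (0.43 ± 0.18, adjusted p = 0.0431), and Txnrd1 with the length slope (0.51). Txnrd1 was called in 2 of 13 alternatives, with values from -0.31 to 0.51 over all 13, and its other call was lower in KO/NTZ. Slc7a11 and Gsta4 were no longer called with either covariate, and both were at 0.11 with the length slope.

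Libraries of KO mice also differed from those of WT mice in features of the RNA. The length slope, the change in log2 CPM relative to the gene mean per 10-fold longer transcript, was 0.39 to 1.10 in WT/PEG and 0.25 to 0.84 in WT/NTZ. It was -1.17 to 0.51 in KO/PEG and -1.06 to -0.22 in KO/NTZ, so long transcripts had relatively lower values there, and only KO/PEG 46 was above 0. The share of mitochondrially encoded transcripts had medians of 9.57% in WT/PEG and 4.86% in KO/PEG. Gpx2, a transcript of 1067 bases, was highest in the KO libraries with the lowest slopes. The 4 KO/PEG libraries with the lowest slope (mitochondrial share 2.39 to 3.67%) had 1076 to 1764 CPM, and the other 9 (3.75 to 14.5%) had 354 to 717 CPM. In KO/NTZ the 4 lowest by slope had 1079.6 to 2841 CPM and the other 7 had 412 to 1113 CPM.

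With the length slope as a covariate, 16.7% of all genes were called higher in KO/PEG and 16.6% lower. Gpx2 was still called higher, at 1.39 ± 0.30 (adjusted p = 0.000406). Srxn1 moved little (1.14 ± 0.19), and Gclc (1.59 ± 0.22), Gclm (1.18 ± 0.17) and Txnrd1 (1.201 ± 0.178) had larger values than without it. Slc7a11 was then called higher in KO/PEG (0.90 ± 0.30, adjusted p = 0.0190), and Gsr (0.40 ± 0.16, adjusted p = 0.0571) and Gsta4 (0.23 ± 0.23, adjusted p = 0.451) were no longer called. The slope nearly separates the genotypes, so its part and that of genotype cannot be told apart in full. In KO/NTZ versus KO/PEG, where the slopes overlapped, Slc7a11 (-0.87 ± 0.18), Gclc (-0.53 ± 0.13) and Txnrd1 (-0.56 ± 0.10) were called lower with the covariate, and so were Gclm (-0.27 ± 0.09) and Srxn1 (-0.34 ± 0.10), beside 4.71% of all genes.

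**Figure D4:**
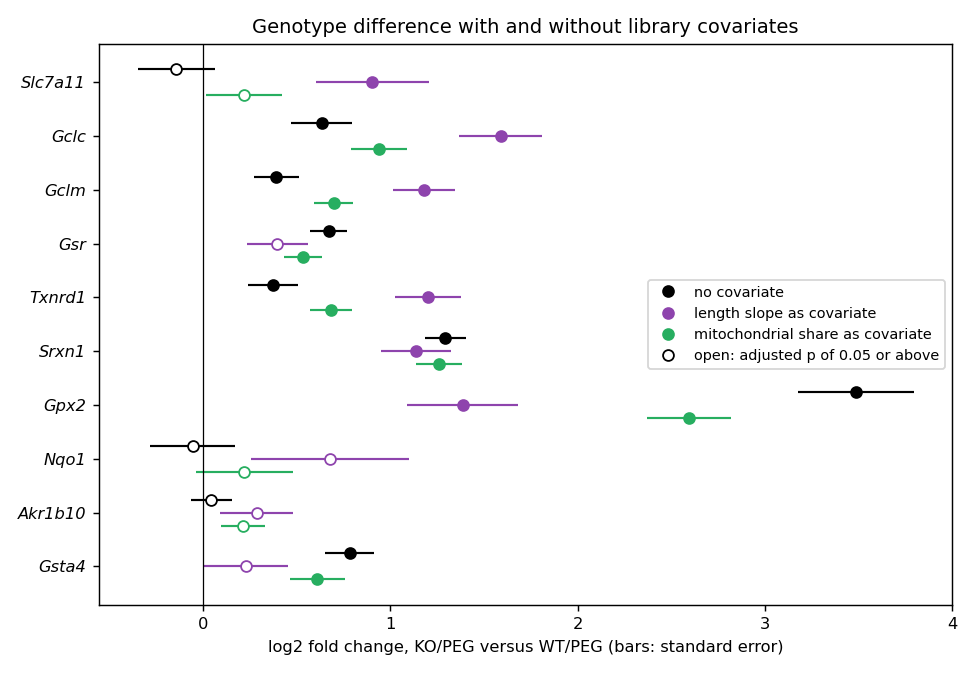
The log2 fold change of each gene in KO/PEG versus WT/PEG without a covariate, with the length slope and with the mitochondrial share of each library as covariate (bars of 1 standard error; open symbols have an adjusted p of 0.05 or above). Srxn1 lies between 1.14 and 1.29 in each, Gpx2 falls from 3.49 to 1.39 with the length slope, and Slc7a11 moves from -0.14 to 0.90.

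Most of the other Nrf2 targets tested were higher in KO/PEG, while Nrf2 mRNA itself was lower. The counts of each list are to be read against the 37.5% of all genes called higher and the 37.2% called lower, and, with the length slope as a covariate, against 16.7% and 16.6%. Of 40 other Nrf2 targets tested, 29 were higher and 6 lower than in WT/PEG (median log2 fold change 0.75, beside -0.00 over all genes). They included heme oxygenase Hmox1 (1.69 ± 0.17), the glutathione transferase Gstm1 (2.17 ± 0.12), malic enzyme Me1 (1.82 ± 0.15) and Prdx1 (1.45 ± 0.14), and among the lower genes catalase Cat (-1.35 ± 0.20) and the iron exporter Slc40a1 (-0.62 ± 0.25). Of Nrf2 and its regulators, 6 of 18 were higher and 5 lower (median 0.04), near or below those shares. Nfe2l2 fell from 354 to 454 CPM in WT/PEG to 113 to 393 CPM in KO/PEG (-0.73 ± 0.16, adjusted p = 0.00011), the repressor Bach1 was also lower (-1.35 ± 0.20), and Keap1 (0.50 ± 0.09), Sqstm1 (0.54 ± 0.09), Mafg (0.96 ± 0.13) and Maff (1.11 ± 0.18) were higher. With the length slope as a covariate, 12 of the 40 targets were higher and 4 lower, and Nfe2l2 (0.26 ± 0.26), Bach1 (0.27 ± 0.20) and Keap1 (-0.20 ± 0.11) were not called.

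Of the glutathione transferases, 20 of 24 were higher in KO/PEG and 1 was lower, Gstcd at -0.90 ± 0.17 (median 1.33). Among other genes of glutathione synthesis and use, 14 of 24 were higher and 4 lower (median 0.37), with glutathione synthetase Gss at 1.51 ± 0.12, the gamma-glutamyltransferase Ggt1 at 2.44 ± 0.27, and cystathionine gamma-lyase Cth, which makes cysteine from methionine, at -1.49 ± 0.17. Of thioredoxins, peroxiredoxins and methionine sulfoxide reductases, 13 of 20 were higher and 4 lower (median 0.45), with Prdx6 at 1.42 ± 0.10 and Msrb3 at -1.16 ± 0.16. With the length slope as a covariate these 3 lists had 8 higher and 4 lower, 4 higher and 6 lower, and 1 higher and 7 lower, so these counts depended on the covariate.

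NADPH, which Gsr, Txnrd1 and Nqo1 consume, comes from genes of which 8 of 18 were higher and 6 lower (median 0.33), near the shares over all genes, with Pgd at 0.86 ± 0.10 and the mitochondrial isocitrate dehydrogenase Idh2 at -1.04 ± 0.14. All 5 genes for superoxide dismutases, their copper chaperone and catalase passed the test, 3 higher (Sod1 0.89 ± 0.14, Ccs 0.98 ± 0.14 and Sod3 0.98 ± 0.24) and 2 lower (Cat, and Sod2 at -0.30 ± 0.11). Of 9 tested aldo-keto reductases besides Akr1b10, 5 were higher and 2 lower (median 0.48), with Akr1b8 at 3.77 ± 0.34 and Akr1c19 at -0.997 ± 0.146. Gpx2 and Txnrd1 need the factors of selenoprotein synthesis. The list of these factors also held the selenoproteins Selenop, Selenot, Selenow, Selenok and Selenos. Of its 12 genes 6 were higher and 4 lower (median 0.06), also near those shares. The synthesis factor Trnau1ap was at 1.26 ± 0.17 and the selenoprotein Selenot at -1.02 ± 0.12. With the length slope as a covariate the counts of higher and lower genes were 4 and 6 for NADPH supply and 0 and 3 for the dismutases and catalase. They were 2 and 1 for the aldo-keto reductases and 0 and 3 for the list with selenoproteins and their synthesis factors.

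Targets of ATF4, which also drives Slc7a11, were higher for 7 of 12 and lower for 2 (median 0.57), with Trib3 at 2.07 ± 0.38 and Asns at -0.57 ± 0.16, and 0 were higher and 3 lower with the length slope as a covariate. Of 13 enzymes and partners that produce oxidants, 11 were higher and 1 lower (median 2.03). The dual oxidase Duox2, which releases hydrogen peroxide at the epithelial surface, was at 5.55 to 65.0 CPM in WT/PEG and 139 to 539 CPM in KO/PEG (3.06 ± 0.34, adjusted p = 2.30e-10), and its maturation factor Duoxa2 was at 0.960 to 13.9 and 95.2 to 337 CPM (4.83 ± 0.43). Xdh was the lower gene (-0.93 ± 0.22). With the length slope as a covariate 8 of these 13 were higher and none lower, Duox2 among them (3.73 ± 0.48).

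**Figure D5:**
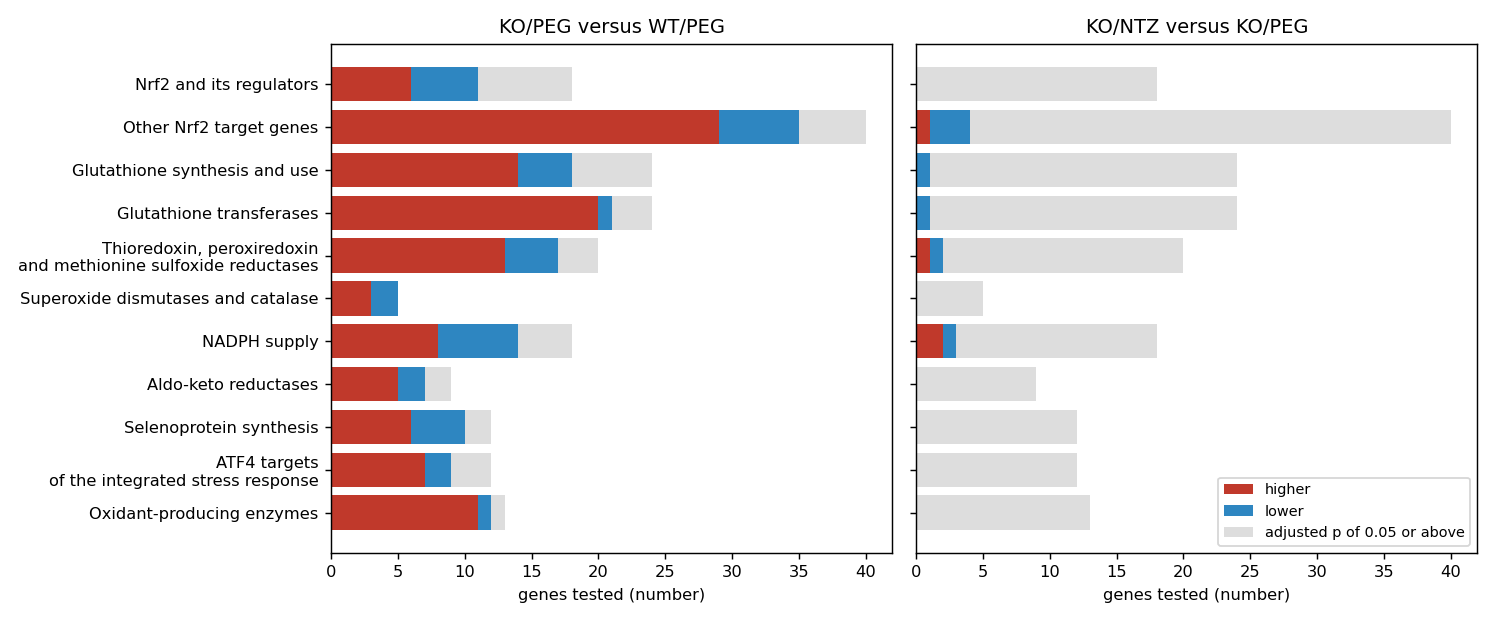
Number of tested genes in each of 11 lists that were higher, lower or not called in KO/PEG versus WT/PEG (left) and in KO/NTZ versus KO/PEG (right); some genes are in more than 1 list. Higher genes fill most of the bars of the other Nrf2 targets (29 of 40), the glutathione transferases (20 of 24) and the oxidant-producing enzymes (11 of 13) on the left, and few genes are called on the right.

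NTZ changed few of these genes in KO mice, where 2.97% of all genes were called higher in KO/NTZ than in KO/PEG and 2.6% lower. Of the 40 other Nrf2 targets, 1 was higher in KO/NTZ than in KO/PEG, Me1 (0.54 ± 0.15, adjusted p = 0.0187), and 3 were lower, Gsta3 (-0.62 ± 0.19), Idh1 (-0.48 ± 0.12) and Aldh3a1 (-0.47 ± 0.15), with a median of -0.10. Cth was the 1 gene called among those of glutathione synthesis and use, at 5.49 to 11.54 CPM in KO/PEG and 1.97 to 9.57 CPM in KO/NTZ (-0.61 ± 0.18, adjusted p = 0.0312). Sesn3 (-0.61 ± 0.15) was lower and Nxn (0.55 ± 0.15) and Me3 (0.86 ± 0.23) were higher. None of the Nrf2 regulators, dismutases, aldo-keto reductases, selenoprotein genes, ATF4 targets or oxidant-producing enzymes was called.

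Under NTZ, 35.6% of all genes were called higher in KO/NTZ than in WT/NTZ and 36.8% lower. Of the 40 other Nrf2 targets, 27 were higher and 5 lower (median 0.61, beside -0.03 over all genes). Of 24 glutathione transferases 19 were higher and 2 lower (0.96), and of 13 oxidant-producing enzymes 8 were higher and 2 lower (1.09). In WT mice 2 genes of the lists were called higher with NTZ, beside 1.03% of all genes called in either direction. They were Hmox1, from a median of 6.70 CPM in WT/PEG to 9.28 CPM in WT/NTZ (0.70 ± 0.19, adjusted p = 0.0484), and Ggt6, at a median of 0.599 CPM in WT/PEG and 1.77 CPM in WT/NTZ (1.25 ± 0.33, adjusted p = 0.0422). Neither was called with only the WT libraries in the fit (adjusted p = 0.162 and 0.171). Without the libraries rich in squamous markers, whose summed median was 768 CPM in WT/NTZ and 1.52 CPM in WT/PEG, Hmox1 was at 0.10 ± 0.21 and Ggt6 at 0.26 ± 0.42. The effect of NTZ differed between genotypes for 1 gene of the lists, beside 0.953% of all genes. It was the microsomal glutathione transferase Mgst1 (-0.99 ± 0.23, adjusted p = 0.0254), whose value without the libraries rich in squamous markers is not reported here. Its medians were 25.7 CPM in WT/PEG, 34.7 CPM in WT/NTZ, 87.9 CPM in KO/PEG and 65.7 CPM in KO/NTZ, so NTZ-treated mice had the higher median among WT mice and the lower one among KO mice.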

How the data were processed

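The authors quantified single 75-base reads of stranded poly(A) libraries against GRCm38 transcripts with kallisto 0.42.4 (version per the labels) and deposited estimated counts of 94080 transcripts in 44 libraries, without normalization. Here the estimated counts of 92284 transcripts were summed by GENCODE vM21 gene name (GRCm38) and rounded. The other 1796 held 0.351% to 1.33% of the counts of a library and were left out. Genes with low counts were removed with filterByExpr (minimum count 10, minimum total count 15), which left 14893. All libraries were fitted together in edgeR 4.0.16 (R 4.3.3) with TMM normalization and 1 mean per group, since the Sleuth test of the study needs repeat quantifications that were not used here. Each pair of groups, and the difference of the NTZ effects, was compared by a quasi-likelihood F-test, and Benjamini-Hochberg adjusted p-values below 0.05 over all genes tested were called.

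CPM and TPM were computed from these counts. The length slope is the slope of a library's log2 CPM, as deviation from the gene mean, on the log10 length of each gene's leading transcript. The fit was tested on simulated data. Alternatives used DESeq2 1.42.0, limma 3.58.1, other size factors, no filter, fewer libraries, covariates or leading transcripts. Leaving out libraries rich in squamous markers, keeping only animals numbered 100 or above, leaving out KO/PEG 45 and 46 together and leaving out each library in turn were chosen after seeing the data. The genes, lists and markers were chosen with earlier results of these data known. All 10 genes were named, and other genes came from the lists. Totals ranged from 6065084 to 21945124, so 3 counts, the smallest signal taken, stand for 0.137 to 0.495 CPM. That floor covers counting error only.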

Additional observations from a re-analysis of the deposited data

How the results depend on the processing

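The number of genes called lower or higher among the 10 stayed within 1.5 times the number reported in KO/PEG versus WT/PEG, WT/NTZ versus WT/PEG and KO/NTZ versus WT/NTZ under every alternative run. In KO/NTZ versus KO/PEG it moved from 3 to 1 with only the groups compared, to 5 with only KO animals numbered below 100 and to 5 with the length slope as a covariate, and leaving out 1 library at a time gave 3 to 6 (5 without KO/NTZ 25 or the library titled KO_109_KO_PEG, 6 without KO/PEG 53). For the difference between the NTZ effects it moved from 0 to 1 with only KO animals numbered below 100 (Txnrd1, -0.88) and to 2 with the length slope. Leaving out any 1 library ended no call of the 10 genes. A similar number of calls need not mean the same genes. With the length slope as a covariate, the genes called changed in KO/PEG versus WT/PEG and in KO/NTZ versus WT/NTZ.

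Signs changed as follows. In KO/PEG versus WT/PEG, Slc7a11 and Nqo1 became 0.17 and 0.10 with only KO animals numbered below 100, 0.90 and 0.68 with the length slope and 0.22 and 0.22 with the mitochondrial share, Nqo1 became 0.017 without libraries rich in squamous markers, and Akr1b10 became -0.29 for its leading transcript, -0.053 among animals numbered 100 or above and -0.0023 without KO/PEG 45 and 46. In WT/NTZ versus WT/PEG, Gclc became -0.0075 with limma-trend, -0.012 with the pair of WT/PEG libraries of one number summed, -0.0053 for its leading transcript and -0.21 among animals numbered 100 or above. Gclm, Gsr, Txnrd1 and Akr1b10 became 0.077, -0.032, 0.14 and 0.032 with the length slope, Gclm and Txnrd1 became 0.027 and 0.033 without the libraries rich in squamous markers, and Akr1b10 became 0.0027 with DESeq2, 0.013 with only the groups compared and 0.072 among animals numbered 100 or above. In KO/NTZ versus WT/NTZ, Slc7a11, Nqo1, Gclc, Txnrd1 and Akr1b10 became 0.11, 0.21, 0.88, 0.51 and 0.18 with the length slope, Gclc, Txnrd1 and Akr1b10 became 0.43, 0.18 and 0.17 with the mitochondrial share, and Gclc became 0.0097 with no filter, 0.034 without the libraries numbered 110 and 0.030 with only KO animals numbered below 100. Gpx2 became -0.18 with the mitochondrial share in the difference between the NTZ effects. The cause was not tested. Of these, only Slc7a11 with the length slope in KO/PEG versus WT/PEG, and Gclc and Txnrd1 with the length slope and Gclc with the mitochondrial share in KO/NTZ versus WT/NTZ, passed the threshold with the changed sign.

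Other calls that were lost were Txnrd1 in KO/PEG versus WT/PEG among animals numbered 100 or above (0.12), where Slc7a11 was called lower (-0.44), and, with the mitochondrial share in KO/NTZ versus WT/NTZ, Slc7a11 (-0.31) and Gsta4 (0.37; 0.11 with the length slope). Srxn1 was called lower in KO/NTZ versus KO/PEG with RLE size factors and with DESeq2 (-0.34 in both), and in 8 of 24 fits that left out 1 library. Over all genes, the calls in KO/PEG versus WT/PEG went from 11119 to 4957 with the length slope, in KO/NTZ versus KO/PEG from 829 to between 267 (only the groups compared) and 1653 (length slope), in WT/NTZ versus WT/PEG from 153 to between 0 (only the groups compared) and 484 (animals numbered 100 or above), in KO/NTZ versus WT/NTZ from 10783 to 3165 with the length slope, and in the difference between the NTZ effects from 142 to between 30 (without libraries rich in squamous markers) and 1440 (length slope). Slc7a11, at 2.49 to 24.2 CPM, and Akr1b10 rest on the fewest counts. No paired analysis was possible because the groups share only the number 110, which the labels do not tie to 1 animal.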
